A study of Mus musculus with 6 samples.

Results

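A set of 10 transcripts for secreted factors of macrophages that drive or restrain tubular repair and fibrosis were followed in CD11B+ cells from injured mouse kidneys. They were the EGF receptor ligands Hbegf, Areg and Ereg, the growth factors Igf1, Pdgfa and Pdgfb, the fibrogenic and immune regulator Tgfb1, the cytokines Osm and Il10, and progranulin (Grn). The members were taken from the count table by gene symbol alone, and all were found among its 46603 genes. The table holds 6 libraries, each from the kidneys of 1 male mouse of 10 to 12 weeks on day 3 after bilateral ischemia-reperfusion injury (IRI-AKI), with both renal pedicles clamped for 28 minutes. The 3 PTEC DN RAR mice carried PEPCK CRE+ and Rosa26-LSL-RARaT403X, so that a dominant negative retinoic acid receptor was expressed in proximal tubular epithelial cells (PTECs), in which the PEPCK promoter drives Cre. The 3 Cre– controls (PEPCK CRE-) carried the same Rosa26-LSL-RARaT403X allele without Cre and underwent the same injury, and no uninjured library enters the comparison. The Cre line was of mixed 129svJ; C57BL/6 background and the dominant negative line was on C57BL/6. The PEPCK promoter is one of tubules, and Cre activity in the CD11B+ cells was not tested. CD11B+ cells were pulled from digested kidneys with antibody-coated magnetic beads and were not sorted further, so each library is a mixture of cells, and fewer cells of a type and less RNA per cell cannot be told apart. No source used here says that mice of the same genotype came from separate litters or operating days, and p values measure the spread between these 6 mice.

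Macrophages and monocytes that enter or reside in the kidney after injury send signals to tubular cells, fibroblasts, pericytes and one another. EGF receptor ligands are made as membrane-bound precursors, released by the ADAM proteases and act on epithelium, PDGF chains act on pericytes and fibroblasts, and insulin-like growth factor 1 is a trophic factor made by many macrophages. TGF-β1 is secreted in a latent form that must be released before it acts. Oncostatin M belongs to the IL-6 family and signals through gp130, interleukin 10 restrains the myeloid cells that make it, and progranulin is a secreted and lysosomal glycoprotein that is cut into granulins.

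In PTEC DN RAR mice, Osm, Il10, Areg and Grn were lower and Pdgfb was higher than in Cre– controls, while Igf1, Tgfb1, Pdgfa and Hbegf did not pass the test and Ereg was close to the limit of detection. Areg was 3.58-fold, Osm 2.91-fold, Il10 2.6-fold and Grn 1.41-fold lower, and Pdgfb was 1.72-fold higher. Counts were tested by edgeR's quasi-likelihood test on TMM-scaled libraries with Benjamini-Hochberg adjustment over 15440 genes, and an adjusted p under 0.05 was called. Of the 9 members that passed the filter on low counts, 4 were called lower and 1 higher, and 4 were not called. Of all genes tested, 17.1% were called lower and 23.6% higher, 40.6% in all, so a call in this comparison was common. The median log2 fold change was -0.11 over the 9 members and 0.04 over all genes tested. Every PTEC DN RAR library lay below every control library in 4 members and above in 2, against 24.2% and 29.2% of all genes tested.

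**Figure D1:**
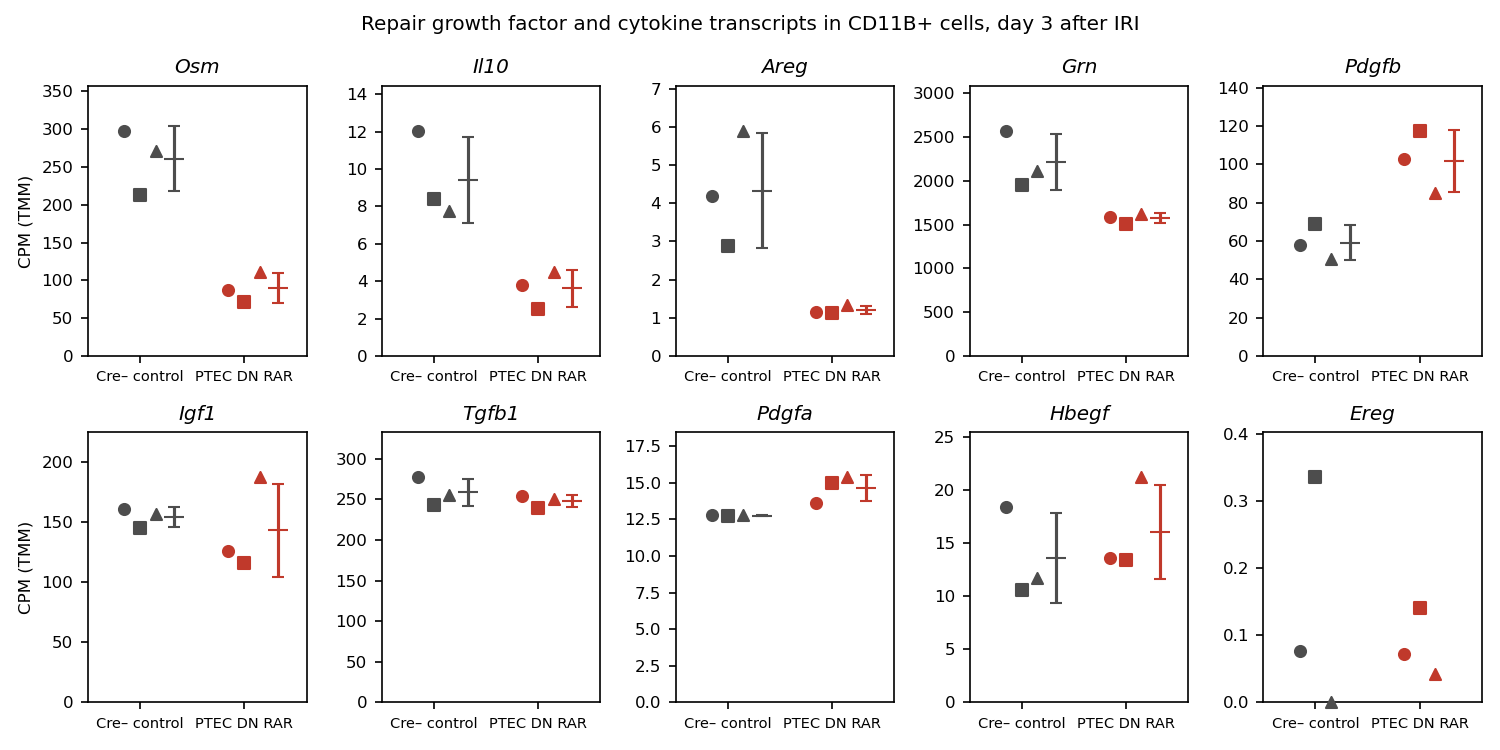
Level in CPM (reads of a gene scaled to the library's TMM-adjusted total, linear axis from 0) of each of the 10 transcripts in the 3 Cre– control (grey) and 3 PTEC DN RAR (red) libraries. Circles, squares and triangles are replicates 1, 2 and 3 of each genotype, which are different mice, and bars give the mean and SD (left out for Ereg, which had at most 10 reads in a library). For Osm, Il10, Areg and Grn all 3 red points lie below the grey ones, for Pdgfb and Pdgfa all lie above, and the other transcripts overlap.

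The libraries held between 29318041 and 46517005 counts on genes, so 3 reads correspond to between 0.0645 and 0.102 CPM before TMM scaling. The transcript of CD11B itself, Itgam, measured 1737, 1959 and 1995 CPM in the controls and 1366, 1303 and 980 CPM in PTEC DN RAR mice, a log2 fold change of -0.64 (adjusted p = 0.00818 by edgeR). Summed over 9 markers, resident macrophage transcripts overlapped, at 18820 to 24000 CPM in controls against 20860 to 26180 CPM, with Mertk called lower and Cd81 higher. Summed over 8 markers, infiltrating monocyte transcripts were lower without overlap, from 3641 to 3914 CPM against 1492 to 1631 CPM, with 6 of 8 markers called lower and none higher. Summed neutrophil markers were also lower without overlap, with 5 of 10 called lower and none higher. Summed proximal tubule, thick ascending limb, distal tubule, endothelial, stromal and podocyte markers were higher without overlap. The mitochondrial share of counts was 5.03% to 8.77% in the Cre– libraries against 10.4% to 12.1% in the others. Among the remaining lists, summed T cell and ILC2, B cell and mast cell markers were higher without overlap and platelet markers were lower. Summed dendritic cell, NK cell and injured tubule markers overlapped. Of 7 dendritic cell markers, Xcr1 and Clec9a were called higher (log2 fold changes 2.46 and 1.32) and none lower. None of 7 injured tubule markers was called, and their sum was mostly Clu. The mast cell sum was nearly all Kit, with Prss34 at 0 and Cpa3, Mcpt4, Mcpt8, Fcer1a and Ms4a2 at no more than 8 reads each over all libraries. The part of these differences in the results below was not tested.

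**Figure D2:**
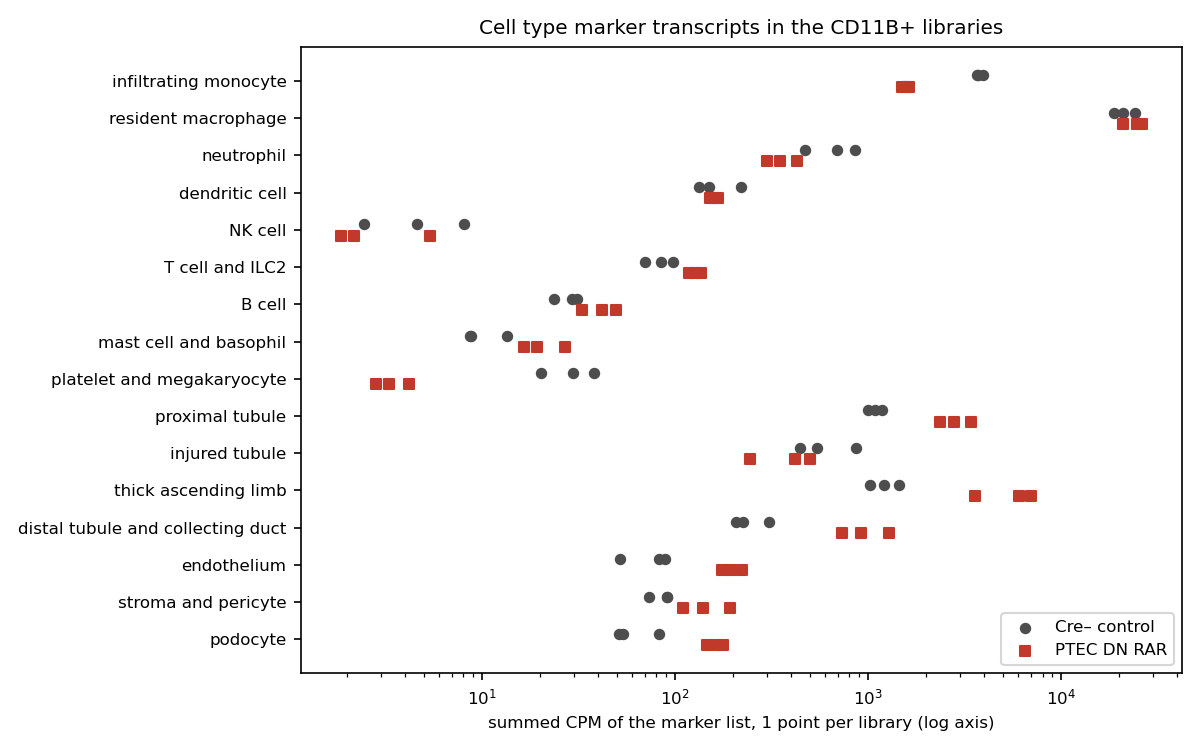
Summed CPM of each cell type marker list (logarithmic axis), 1 point per library, for Cre– controls (grey circles) and PTEC DN RAR mice (red squares). Resident macrophage markers overlap, infiltrating monocyte, neutrophil and platelet markers lie lower in PTEC DN RAR mice, and proximal tubule, thick ascending limb, distal tubule, endothelial, stromal and podocyte markers lie higher, while injured tubule markers overlap.

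Compared per length (CPM per kb of exon, mean of the 6 libraries), Grn stood far above the other members at 546. Osm followed at 77.1 and Tgfb1 at 50.2, with overlapping ranges over the 6 libraries, then Pdgfb at 19.3 and Igf1 at 15.0, whose ranges overlapped too. Il10 at 4.97, Pdgfa at 4.40, Hbegf at 3.07 and Areg at 2.28 were lower, and Ereg was last at 0.0270. The order was not the same in both genotypes. In the controls Osm ranged from 93.9 to 131 CPM per kb, above all values of Tgfb1 (48.3 to 54.9). In PTEC DN RAR mice Osm ranged from 31.2 to 48.6 CPM per kb and overlapped with Tgfb1 (47.4 to 50.4). Pdgfb and Igf1 overlapped in the controls, at 12.1 to 16.6 and 14.7 to 16.3 CPM per kb, whereas in PTEC DN RAR mice every value of Pdgfb (20.5 to 28.2) was above every value of Igf1 (11.8 to 18.9). Il10 was above Pdgfa in every control (5.92 to 9.19 against 4.08 to 4.10 CPM per kb) and below it in every PTEC DN RAR mouse (1.93 to 3.45 against 4.37 to 4.93). Areg overlapped with Pdgfa and Hbegf in the controls, at 2.37 to 4.85, and was below Il10, Pdgfa and Hbegf in PTEC DN RAR mice, at 0.931 to 1.10 CPM per kb.

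Of the cytokines, Osm was the more abundant. Osm (ENSMUSG00000058755, a protein-coding gene on the plus strand of chromosome 11 of GRCm38 from 4236420 to 4241026) measured 298, 213 and 271 CPM in the controls and 87.3, 70.9 and 110 CPM in PTEC DN RAR mice. The highest PTEC DN RAR library was thus well below the lowest control. The means were 261 ± 43.1 CPM and 89.5 ± 19.8 CPM (SD, n = 3 each). The log2 fold change for Osm was -1.54 (standard error [SE] 0.18, 95% interval from -1.95 to -1.14, adjusted p = 0.000518 by edgeR). Osm is made mainly by activated myeloid cells, and among these libraries its counts ran from 3010 to 11613 reads, so counting error is small beside the spread between mice. The fall was seen with every scaling and with each mouse left out, with log2 fold changes from -1.76 to -1.32.

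The receptor chains of oncostatin M did not fall with it. Il6st, which encodes gp130, the signalling chain shared by the IL-6 family, measured 95.2, 98.0 and 96.5 CPM in the controls and 109, 119 and 118 CPM in PTEC DN RAR mice, a log2 fold change of 0.26 (adjusted p = 0.0263 by edgeR). Lifr, the leukemia inhibitory factor receptor that mouse oncostatin M can also use, rose by 0.61 on the log2 scale (adjusted p = 0.0273). Both calls were small, both were lost when libraries were scaled on resident macrophage markers (adjusted p = 0.623 for Il6st and 0.0527 for Lifr), and leaving out Cre– control replicate 3 ended both (adjusted p = 0.156 and 0.0634). The call of Il6st was also lost with no filter (0.0942) and without control replicate 2 or PTEC DN RAR replicate 2 or 3 (0.0848 to 0.122), and that of Lifr without control replicate 1 or 2 or PTEC DN RAR replicate 1 or 2 (0.0541 to 0.0878). Osmr, the specific receptor chain, was scarce at 3.51 and 3.73 CPM and did not pass (adjusted p = 0.695). Socs3, a feedback inhibitor induced through gp130 and STAT3, fell by 0.93 on the log2 scale, from 712 to 374 CPM (adjusted p = 0.00212). Il6 itself was low, at 1.90 and 0.831 CPM, with a log2 fold change of -1.19 whose genotypes overlapped (adjusted p = 0.0343), a call that was lost with limma-voom and pan-leukocyte scaling (adjusted p = 0.0535 and 0.0667) and without Cre– control replicate 1 or 2 or PTEC DN RAR replicate 1 or 3 (0.0715 to 0.111). Of the 10 tested genes in this list of IL-6 family ligands, receptors and signalling genes, 3 were called lower and 2 higher, with a median log2 fold change of -0.05. With pan-leukocyte scaling 1 was lower and 2 higher (median 0.16), and with resident macrophage scaling 3 were lower and none higher (median -0.22).

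Il10 (ENSMUSG00000016529, protein-coding, chromosome 1, plus strand, 131019845 to 131024974) was scarcer than Osm. Its reads numbered 470, 251 and 245 in the controls against 159, 107 and 213 in the deeper libraries of the PTEC DN RAR mice. Scaled, these were 12.0, 8.42 and 7.76 CPM against 3.80, 2.52 and 4.51 CPM, with no overlap and the closest pair being control replicate 3 and PTEC DN RAR replicate 3. The means of 9.41 ± 2.30 and 3.61 ± 1.01 CPM (SD, n = 3 each) gave a log2 fold change of -1.38 (SE 0.25, 95% interval from -1.96 to -0.81, adjusted p = 0.00359 by edgeR). The proinflammatory cytokine Osm and the antiinflammatory Il10 thus moved in the same direction.

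Around Il10, the ligand-binding receptor chain Il10ra was level at 377 and 379 CPM (log2 fold change 0.01, SE 0.10, adjusted p = 0.956 by edgeR). Il10rb, the second chain of the receptor, fell by 0.26 on the log2 scale (adjusted p = 0.0395), a call that was lost with pan-leukocyte scaling (adjusted p = 0.645), with at least 10 reads asked of every library (0.0532) and without any 1 of 5 mice, the exception being Cre– control replicate 2. Nfil3, a transcription factor induced by IL-10 in macrophages, fell from 134 to 53.4 CPM, a log2 fold change of -1.33 (adjusted p = 0.000707). Maf, which activates the Il10 gene in macrophages, fell by 0.56 (adjusted p = 0.00288), and Prdm1 and Sbno2 fell by 0.38 and 0.37 on the log2 scale. With pan-leukocyte scaling the latter pair were not called, at -0.17 and -0.16 (adjusted p = 0.31 and 0.337), and Sbno2 was also lost without PTEC DN RAR replicate 2 (0.0507). In all, 5 of the 8 tested genes of this list were called lower and none higher, and with pan-leukocyte scaling 2 were. The related cytokine genes Il20 and Il24 had no read in any library and Il19 had 4 reads in all.

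Infiltrating monocyte markers moved in the same direction as Osm and Il10. Among them Ccr2, the chemokine receptor of inflammatory monocytes, had a log2 fold change of -0.73 and F13a1, the coagulation factor XIII A chain of monocytes, one of -2.35. Within libraries, Osm stood at 1.08, 0.876 and 1.06 times the CPM of Tgfb1 in controls and at 0.343, 0.297 and 0.441 times in PTEC DN RAR mice. Relative to Il10ra, the CPM of Il10 was 0.0301, 0.0223 and 0.0219 in the Cre– libraries against 0.0105, 0.0061 and 0.0125. Such ratios do not depend on how libraries are scaled, and neither overlapped between genotypes.

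Of the 3 EGF receptor ligands among the members, Areg was the one called. Areg (ENSMUSG00000029378, protein-coding, chromosome 5, plus strand, 91139599 to 91148432) encodes amphiregulin, a ligand that macrophages, lymphoid cells and injured epithelium make. It had 164, 86 and 186 reads in the controls and 48, 48 and 63 reads in PTEC DN RAR mice, or 4.20, 2.89 and 5.89 CPM against 1.15, 1.13 and 1.33 CPM. The PTEC DN RAR libraries lay close together and below all controls, which themselves spread over 2.04-fold. The means were 4.33 ± 1.51 and 1.2 ± 0.114 CPM (SD, n = 3 each). For Areg the log2 fold change was -1.84 (SE 0.28, 95% interval from -2.49 to -1.2, adjusted p = 0.00174 by edgeR).

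The bases upstream of Areg are shown because this was the member with the largest fold change and because its start is placed at the same base by RefSeq and by GENCODE M21. The sequence is from RefSeq (GRCm38.p6), chr5:91139349-91139598 on the plus strand, 250 bases ending just before the start of transcription, with a cAMP response element (CRE, letters TGACGTCA, the same on both strands) and a TATA box (letters TATAAA) in capitals.
Areg: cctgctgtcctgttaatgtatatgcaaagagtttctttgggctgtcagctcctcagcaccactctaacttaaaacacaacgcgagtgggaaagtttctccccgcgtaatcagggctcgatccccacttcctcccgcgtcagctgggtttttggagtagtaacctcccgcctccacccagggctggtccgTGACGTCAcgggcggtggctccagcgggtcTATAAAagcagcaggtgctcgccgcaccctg
The CRE begins 61 bases and the TATA box 31 bases before the start. Searched on both strands, TGACGTCA was found in 1.55% and TATAAA in 12.4% of 32851 upstream windows of the same length. RefSeq windows were matched for 5 of the 10 members (Areg, Pdgfa with 2 starts, Tgfb1, Igf1 and Grn). The RefSeq starts used for Igf1, Grn and Pdgfa lie inside the genes as annotated by GENCODE. TGANTCA, the letters of an AP-1 element, was found in the Igf1 window and in 6.75% of all windows. TCACNTGA, an E-box of the MiT/TFE factors, was found in the Grn window and in 3.45% of all windows. These are matches of letters and were not tested for binding.

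Hbegf (ENSMUSG00000024486), which encodes heparin-binding EGF-like growth factor, did not follow Areg. It measured 18.4, 10.6 and 11.8 CPM in the controls and 13.6, 13.4 and 21.2 CPM in PTEC DN RAR mice. The genotypes overlapped, with 1 mouse of each genotype above the other 2. The log2 fold change was 0.24 (SE 0.25, 95% interval from -0.33 to 0.80, adjusted p = 0.47 by edgeR), so a fall as large as that of Areg lies outside its interval. Without PTEC DN RAR replicate 3 it was -0.05 (adjusted p = 0.879). Within libraries the CPM of Areg was 0.228, 0.272 and 0.501 times that of Hbegf in controls and 0.0844, 0.0842 and 0.0630 times in PTEC DN RAR mice, without overlap.

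Ereg (ENSMUSG00000029377), the gene for epiregulin, lies on chromosome 5 from 91074622 to 91093646, 46.0 kb before Areg on the same strand. It had 3, 10 and 0 reads in the controls and 3, 6 and 2 reads in PTEC DN RAR mice and did not pass the filter on low counts. Tested with no filter, it did not pass either (adjusted p = 0.669 by edgeR). An antisense gene, Gm19610, shares exon bases with it. Epgn, which lies 39.4 kb before Ereg, had 6 reads over all libraries. Btc, the gene for betacellulin on the opposite strand 208.8 kb beyond Areg, rose from 1.38 to 3.39 CPM, a log2 fold change of 1.30 (SE 0.25, adjusted p = 0.00417 by edgeR). Of the ligands in this stretch of chromosome 5, Areg and Btc therefore moved in opposite directions.

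The other EGF receptor genes were mostly higher. Of 16 tested, 9 were called higher and 3 lower, and the median log2 fold change was 0.66. Egf, which thick ascending limb and distal tubule cells make, measured 129, 149 and 131 CPM in the controls and 1155, 899 and 1588 CPM in PTEC DN RAR mice, a log2 fold change of 3.15 (SE 0.20, adjusted p = 0.000132 by edgeR). The receptor genes rose too, Egfr by 0.99, Erbb2 by 1.39, Erbb3 by 0.73 and Erbb4 by 1.66 on the log2 scale, all at levels between 5.55 and 27.0 CPM. The call of Erbb3 was lost without Cre– control replicate 3 (adjusted p = 0.0563). Thick ascending limb markers rose alongside, from 1027 to 1447 CPM in sum in controls and from 3574 to 6938 CPM in PTEC DN RAR mice, with 5 of 5 markers called higher. On the side of release, Adam17, the main sheddase of Areg and Hbegf, was level at 223 and 207 CPM (adjusted p = 0.449). Its trafficking partner of myeloid cells, Rhbdf2 (iRhom2), fell by 0.59 on the log2 scale (adjusted p = 0.0034), and Rhbdf1 (iRhom1), which is used in epithelium, rose by 1.14 (adjusted p = 0.000843). The fall of Rhbdf2 was not called with pan-leukocyte scaling, and Nrg4, also called lower, had 92 reads over all libraries. Adam10, another sheddase, had a log2 fold change of -0.37 with overlapping genotypes (adjusted p = 0.0393), a call that was lost with pan-leukocyte scaling (0.324), with library size alone (0.0513) and without Cre– control replicate 2 or 3 or PTEC DN RAR replicate 1 or 3 (0.0757 to 0.102).

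Pdgfb was the only member called higher. Pdgfb (ENSMUSG00000000489, protein-coding, chromosome 15, minus strand, 79995874 to 80014977) encodes the B chain of platelet-derived growth factor, a ligand for the receptors of pericytes and fibroblasts. It measured 57.9, 68.9 and 50.5 CPM in the controls and 103, 117 and 85.1 CPM in PTEC DN RAR mice, every one of which was above every control. The means of 59.1 ± 9.23 and 102 ± 16.2 CPM (SD, n = 3 each) gave a log2 fold change of 0.78 (SE 0.15, 95% interval from 0.45 to 1.12, adjusted p = 0.0039 by edgeR). With the scalings tried and with each mouse left out it ranged from 0.60 to 0.99 and was called each time. Endothelial cells also make PDGF-B, and endothelial markers in sum were 88.5, 82.3 and 52.0 CPM against 176, 222 and 194 CPM, with 7 of 7 called higher. Both Pdgfb and this sum were lowest in control replicate 3 and highest in PTEC DN RAR replicate 2. The highest control, however, was replicate 2 for Pdgfb and replicate 1 for the sum. The lowest PTEC DN RAR mouse was replicate 3 for Pdgfb and replicate 1 for the sum. The part of endothelial cells in the rise of Pdgfb was not tested. Platelet markers went the other way, from between 20.3 and 38.1 CPM to between 2.83 and 4.21 CPM. In the controls that sum was mostly Ppbp (25.57, 19.02 and 36.37 CPM against 1.768, 0.7777 and 1.42 CPM), while Itga2b did not pass (log2 fold change 0.02, adjusted p = 0.973) and Gp9, Gp1ba, Gp1bb, Treml1 and Gp6 were at most 0.641 CPM in every library.

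Pdgfa (ENSMUSG00000025856, chromosome 5, minus strand, 138976014 to 138997370), the A chain, was steady in the controls at 12.8, 12.7 and 12.8 CPM and measured 13.6, 15.0 and 15.4 CPM in PTEC DN RAR mice. Every PTEC DN RAR library was higher, but the log2 fold change of 0.20 (SE 0.11, 95% interval from -0.05 to 0.45) did not pass (adjusted p = 0.176 by edgeR). An antisense gene, 6330403L08Rik, shares exon bases with Pdgfa, and how strand was treated in the counting is not given in the sources used here. The CPM of Pdgfb was 4.53, 5.42 and 3.95 times that of Pdgfa in controls and 7.55, 7.85 and 5.54 times in PTEC DN RAR mice, again without overlap but with a narrow gap between control replicate 2 and PTEC DN RAR replicate 3. The PDGF receptors were scarce. Pdgfrb measured 4.43, 5.57 and 3.45 CPM against 8.24, 14.5 and 6.12 CPM (log2 fold change 1.10, adjusted p = 0.024), and Pdgfra 2.43, 2.35 and 1.71 against 4.78, 8.63 and 2.18 CPM (log2 fold change 1.26, adjusted p = 0.0481). Both were highest in PTEC DN RAR replicate 2, and without it neither was called (log2 fold change 0.68 for both, adjusted p = 0.0652 for Pdgfrb and 0.176 for Pdgfra). Leaving out Cre– control replicate 1 or 3 also ended both calls, with adjusted p from 0.0563 to 0.155, and Pdgfra was lost without control replicate 2 and PTEC DN RAR replicate 1 as well (0.097 and 0.0848), with limma-voom (0.144) and with the size factors of DESeq2 (0.0532). Pcsk5, a proprotein convertase, rose from 2.82 to 9.48 CPM (log2 fold change 1.74, adjusted p = 0.000554), and of the 6 genes of this list 4 were called higher and none lower. Of 7 stromal and pericyte markers, Col1a1, Col1a2, Col3a1 and Lum had the same order among the PTEC DN RAR mice (35.67, 51.49 and 16.68 CPM for Col1a2), whereas Dcn was highest in replicate 1, Ren1 was lowest there, and Rgs5, a pericyte marker, was highest in replicate 3.

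Igf1 (ENSMUSG00000020053, protein-coding, chromosome 10, plus strand, 87858265 to 87937042) measured 161, 145 and 157 CPM in the controls and 126, 117 and 188 CPM in PTEC DN RAR mice. The control values were close together, and the PTEC DN RAR mice fell on both sides of them. The log2 fold change was -0.11 (SE 0.17, 95% interval from -0.49 to 0.27, adjusted p = 0.636 by edgeR). This value rested on PTEC DN RAR replicate 3, without which Igf1 was lower by a log2 fold change of -0.39 and was called (SE 0.09, adjusted p = 0.0166), whereas without PTEC DN RAR replicate 2 it was 0.02 (adjusted p = 0.937). The IGF receptor gene Igf1r rose from 16.2 to 29.3 CPM, a log2 fold change of 0.85 (SE 0.10, adjusted p = 0.000561). The binding proteins that hold IGF outside cells rose, Igfbp3 by 1.29, Igfbp5 by 1.89 and Igfbp7 by 1.66 on the log2 scale, as did the adaptors Irs1 by 1.93 and Grb10 by 1.31. Igfbp4, another binding protein, at 348 and 302 CPM, did not pass (adjusted p = 0.209). Of the 14 genes of this list 10 were called higher and 1 lower, the latter being Igfbp6. The receptor, binding protein and adaptor genes that rose are also expressed in tubules and endothelium. Summed proximal tubule markers were 996 to 1181 CPM in controls against 2344 to 3424 CPM in PTEC DN RAR mice. Endothelial markers were 52.0 to 88.5 CPM against 176 to 222 CPM. The part of these cells in the rise of the IGF list was not tested.

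Tgfb1 (ENSMUSG00000002603, protein-coding, chromosome 7, plus strand, 25687002 to 25705077) measured 277, 243 and 256 CPM in the controls and 254, 239 and 250 CPM in PTEC DN RAR mice, and the genotypes overlapped. The log2 fold change was -0.06 (SE 0.09, adjusted p = 0.597 by edgeR), and its 95% interval from -0.26 to 0.13 leaves out changes of the size seen for Osm, Il10 or Pdgfb. Its receptors Tgfbr1 (333 and 446 CPM) and Tgfbr2 (417 and 518 CPM) overlapped between genotypes and did not pass (adjusted p = 0.12 and 0.0979). Of genes that release or hold latent TGF-β1, Thbs1, the gene for thrombospondin 1, fell from 1714, 1108 and 1996 CPM to 436, 350 and 533 CPM, a log2 fold change of -1.87 (SE 0.23, adjusted p = 0.000691). Nrros, which tethers latent TGF-β1 on macrophages and microglia, fell by 0.67 on the log2 scale (adjusted p = 0.000709). Tgfbi, a TGF-β-induced matrix gene that macrophages express strongly, fell by 0.58, from 2202 to 1469 CPM (adjusted p = 0.00443). Ltbp4 and Tgfbr3 rose by 1.81 and 1.63, and Itgb8, a chain of an integrin that activates latent TGF-β, by 1.58 on the log2 scale, from levels of 11.3, 5.96 and 8.07 CPM in controls. The inhibitory Smad6 rose by 1.29, whereas Smad7, another inhibitory Smad induced by TGF-β, did not pass (adjusted p = 0.73). Of 25 genes, 9 were called higher and 4 lower, with a median log2 fold change of 0.07. With pan-leukocyte scaling 12 were higher and 3 lower (median 0.28), and with resident macrophage scaling 8 were higher and 4 lower (median -0.08).

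Grn (ENSMUSG00000034708, protein-coding, chromosome 11, plus strand, 102430315 to 102437048) was the most abundant member, above 99.7% of the genes tested. It measured 2570, 1957 and 2118 CPM in the controls and 1592, 1510 and 1627 CPM in PTEC DN RAR mice, without overlap. The means of 2215 ± 318 and 1576 ± 60.3 CPM (SD, n = 3 each) gave a log2 fold change of -0.49 (SE 0.13, 95% interval from -0.78 to -0.20, adjusted p = 0.0147 by edgeR). This was the smallest of the called differences and the least stable, since it was -0.28 with pan-leukocyte scaling (adjusted p = 0.122) and missed the threshold without PTEC DN RAR replicate 2 (adjusted p = 0.0507). Its ratio to Tgfb1 within libraries, which needs no scaling, was 9.29, 8.04 and 8.29 in controls against 6.26, 6.31 and 6.50. Grn shares exon bases with Fam171a2 on the other strand, and reads overlapping both genes would have been left out or assigned according to a strand setting that is not given in the sources used here.

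Among partners of progranulin, Sort1, the gene for its sorting receptor sortilin, was level at 131 and 129 CPM (adjusted p = 0.939 by edgeR), and Psap, the gene for prosaposin, which also carries progranulin to the lysosome, had a log2 fold change of -0.25 (adjusted p = 0.18). Slpi, whose protein shields progranulin from cleavage, fell from 35.6, 95.3 and 53.7 CPM to 20.4, 16.7 and 9.05 CPM, a log2 fold change of -2.0 (SE 0.38, adjusted p = 0.00435). Of proteases that cut progranulin, Ctsl fell by 1.14 on the log2 scale (adjusted p = 0.000455), and Prtn3, a protease of neutrophils and monocytes, by 2.79 (adjusted p = 0.000966), from 4.48 to 0.644 CPM. Mmp12 had a log2 fold change of -0.39 and did not pass (adjusted p = 0.0982), and Elane, with 3 reads in all, was not tested. Tmem106b, a lysosomal membrane gene, was the only gene of this list called higher, at 0.74 on the log2 scale (adjusted p = 0.001). Of the 10 tested, 5 were called lower.

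**Figure D3:**
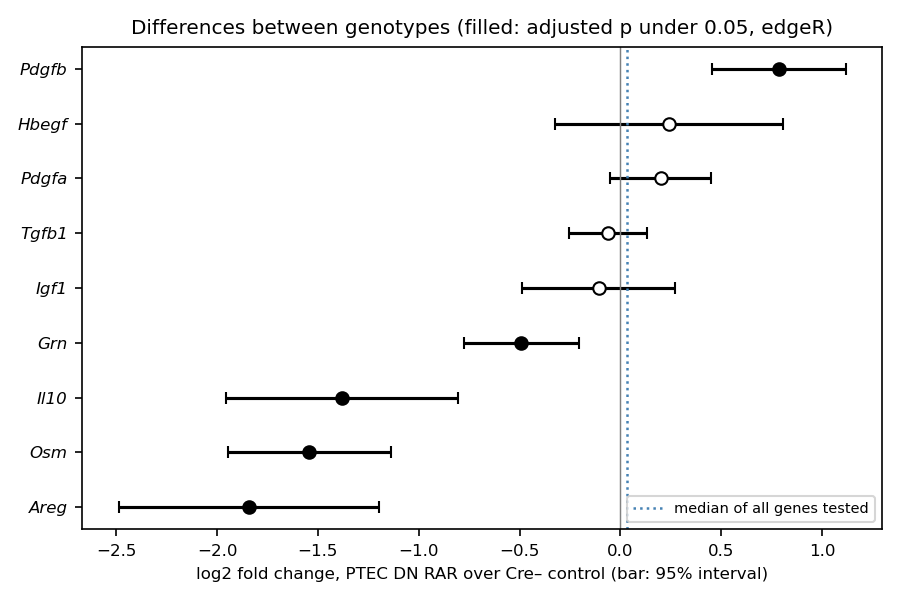
Log2 fold change of the 9 tested members, PTEC DN RAR over Cre– control, with 95% intervals from edgeR (6 libraries). Filled points passed an adjusted p of 0.05, the dotted line is the median of all genes tested (0.04), and Areg, Osm, Il10 and Grn lie below 0 and Pdgfb above it with intervals that leave out 0.

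Other factors by which macrophages take part in repair were lower more often than higher. Of 20, 11 were called lower and 2 higher, with a median log2 fold change of -0.82, and with pan-leukocyte scaling 8 were lower and 3 higher. Gpnmb, a glycoprotein of lipid-laden and repair macrophages, fell from 263, 135 and 256 CPM to 33.6, 25.7 and 26.2 CPM, a log2 fold change of -2.94 (SE 0.25, adjusted p = 0.000208 by edgeR). Fn1, the gene for fibronectin and also one of the monocyte markers, fell by 1.80, Il1rn, the antagonist of the IL-1 receptor, by 1.22, Tgm2, a matrix cross-linking enzyme, by 1.14, Chil3 by 1.07, Lcn2 by 1.06 and Nrp2 by 1.02 on the log2 scale. Vegfa, the angiogenic factor, fell by 0.85 (adjusted p = 0.00605). Wnt7b, a factor of macrophages and of collecting duct, rose by 1.65 from 3.11 to 9.84 CPM (adjusted p = 0.00398), and Il34, a ligand of the CSF1 receptor that tubules make, by 0.97 (adjusted p = 0.00389). Hgf, Gas6, Pros1 and Csf1 did not pass. Over the 8 lists together, 32 of 109 tested genes were called lower and 37 higher, a balance that turned with the scaling. With pan-leukocyte scaling 20 were lower and 42 higher, and with resident macrophage scaling 37 were lower and 32 higher. The shares of all genes tested turned too. They were 17.1% lower and 23.6% higher with TMM and 4.75% and 31.4% with pan-leukocyte scaling. With resident macrophage scaling they were 20.7% and 16.8%.

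**Figure D4:**
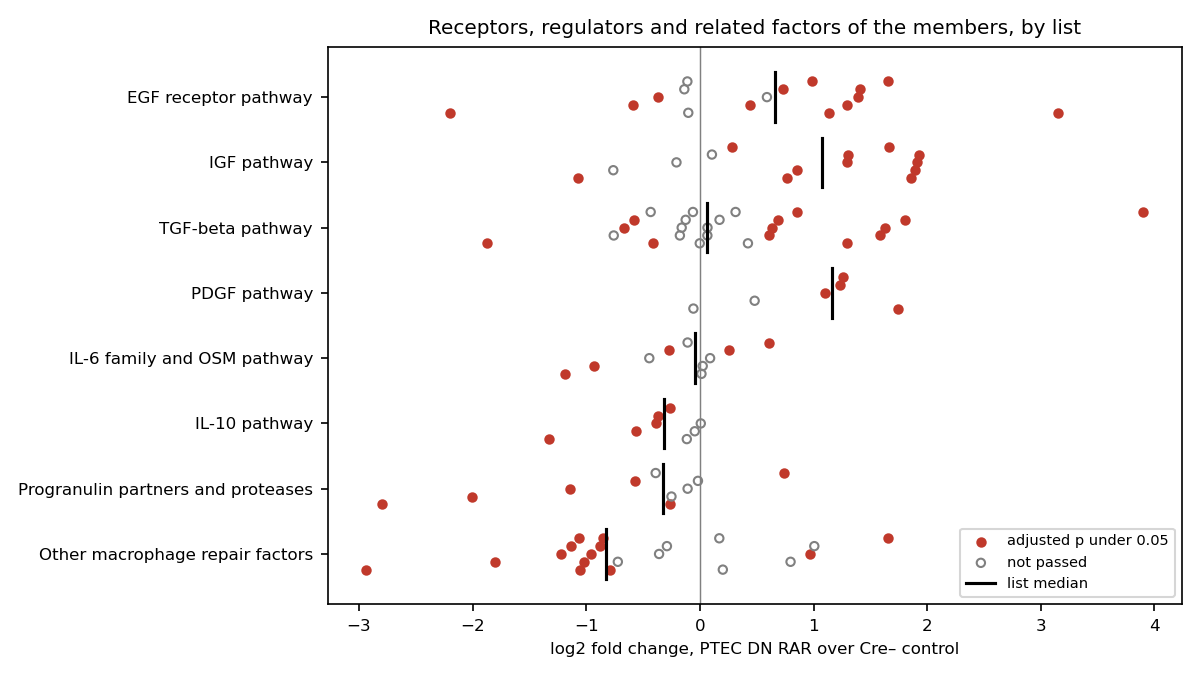
Log2 fold changes, PTEC DN RAR over Cre– control, of the tested genes of 8 lists around the members, 1 point per gene, with list medians as black bars. Red points passed an adjusted p of 0.05 by edgeR. Genes of the IGF, PDGF and EGF receptor lists lie mostly above 0 (medians 1.07, 1.17 and 0.66) and other macrophage repair factors mostly below (median -0.82).

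The mice that stood high or low were often the same from member to member. Cre– control replicate 1 had the highest value for 6 of the 9 tested members and replicate 2 the lowest for 7. PTEC DN RAR replicate 3 had the highest value for 7 and replicate 2 the lowest for 7, the exceptions to the latter being Pdgfa and Pdgfb, of which Pdgfb was highest there. Summed resident macrophage markers were highest among the controls in replicate 1 (24000 CPM) and lowest among the PTEC DN RAR mice in replicate 3 (20860 CPM).

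Genes whose profiles were most like those of the called members were sought among genes of at least 5 CPM, as the smallest root mean square difference between log2 CPM profiles over the 6 libraries after centring each gene on its mean. For Osm these were Dok2, Tmem154 and B430306N03Rik, at 0.110, 0.111 and 0.118, with log2 fold changes of -1.54, -1.55 and -1.76. For Il10 they were S100a6, Capg and S100a4, at 0.136, 0.138 and 0.145, with log2 fold changes of -1.16, -1.23 and -1.13. For Pdgfb they were Dchs1, P3h3 and Tle1, at 0.0430, 0.0464 and 0.0600, and for Grn Ddx28, Plekhm1 and Hmox2, at 0.0371, 0.0381 and 0.0403. Areg was below 5 CPM and was not searched.

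The direction of the called members did not turn with the scaling of the libraries. Scaling on 25 pan-leukocyte genes in place of TMM moved the log2 fold change of the median gene from 0.04 to 0.24 and the shares called lower and higher to 4.75% and 31.4%. Areg, Osm and Il10 were still lower and Pdgfb higher, and Grn was no longer called. Scaling on 9 resident macrophage markers moved that median to -0.13 and the shares to 20.7% and 16.8%, and the same 5 members were called. Igf1 and Tgfb1 changed sign between these scalings, from 0.12 and 0.15 with pan-leukocyte genes to -0.23 and -0.22 with resident macrophage markers, and passed the test with neither.

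**Figure D5:**
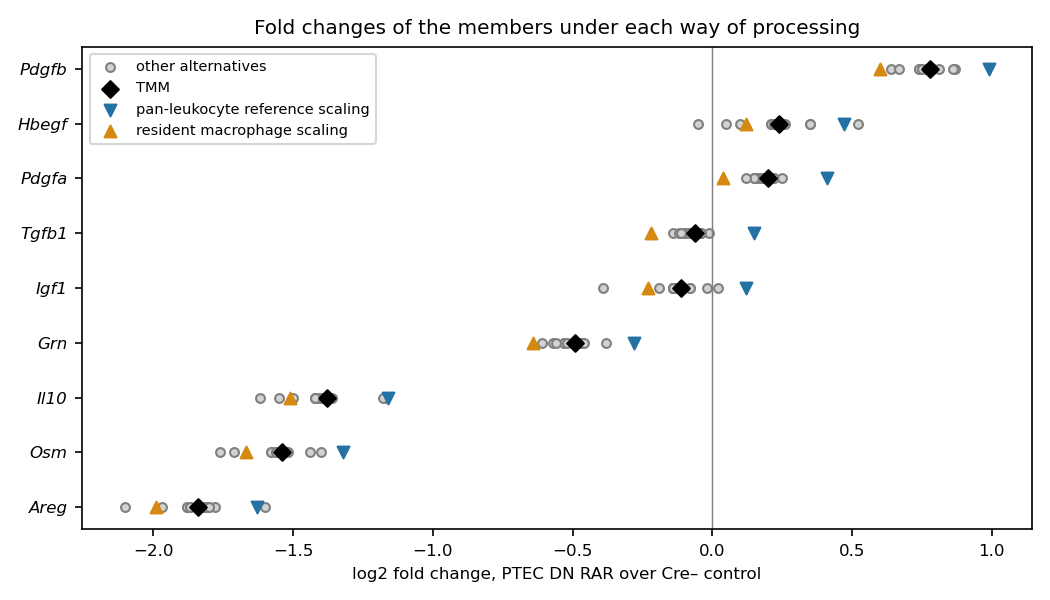
Log2 fold change of each tested member, PTEC DN RAR over Cre– control, with TMM (black diamonds), with pan-leukocyte scaling (blue), with resident macrophage scaling (orange) and in the other alternatives, among them each mouse left out (grey). Areg, Osm, Il10 and Grn stay below 0 and Pdgfb and Pdgfa above 0, whereas Igf1, Tgfb1 and Hbegf lie on both sides.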

How the data were processed

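RNA from CD11B+ cells of 3 PTEC DN RAR and 3 Cre– control mice was sequenced by the authors from polyA-selected libraries, 1 per mouse. The deposited table holds raw read counts per Ensembl gene. The submitters' processing notes name STAR 2.5.0a, HTSeq 0.6.1, edgeR and limma and the build GRCm38. The summary lines of the table carry htseq-count names, so reads aligned to several places (42.9% to 47.8% of alignments), reads shared between genes (at most 0.527%) and reads on no gene (at most 3.97%) stayed out of gene counts. Of 46612 gene lines, 9 that repeated an identifier were collapsed. No pair of libraries of a genotype agreed within sampling noise (chi-square per degree of freedom of at least 29.6).

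After filterByExpr and TMM, genotypes were compared without covariates by the quasi-likelihood functions glmQLFit and glmQLFTest (edgeR 4.0.16, R 4.3.3). Benjamini-Hochberg adjustment covered all 15440 genes. The SE is the size of the log2 fold change divided by the square root of F. Values in CPM are scaled by TMM. Gene positions and exon lengths come from GENCODE M21 and upstream sequences from RefSeq, both on GRCm38. Alternatives used limma 3.58.1 (voom), DESeq2 1.42.0, other scalings, no filter or at least 10 reads in every library, the replicate number as a block, and each mouse left out. Tests were tried on simulated counts. Figures were drawn with matplotlib 3.10.9.

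The 10 members and the lists of related genes and markers were chosen with earlier results of these data known. Named genes are all members, the members' receptors, list genes that averaged 5 CPM or more and were called (adjusted p under 0.05) with a log2 fold change of 1 or more in size, and the 3 nearest profiles (log2 of CPM plus 0.5, among genes of at least 5 CPM) of each called member of at least 5 CPM. Other genes of the lists, such as Btc, Socs3, Rhbdf2, Nrros and Vegfa, and Itgam and the within-library ratios were chosen after their values were seen.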

Additional observations from a re-analysis of the deposited data

How the results depend on the processing

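Areg, Osm, Il10 and Pdgfb kept their direction and were called in each of 15 alternatives, with log2 fold changes from -2.10 to -1.60, from -1.76 to -1.32, from -1.62 to -1.16 and from 0.60 to 0.99. Grn was called in 13 of 15, the exceptions being pan-leukocyte scaling (-0.28) and leaving out PTEC DN RAR replicate 2 (-0.46). Igf1 reversed with pan-leukocyte scaling (0.12) and without PTEC DN RAR replicate 2 (0.02), Tgfb1 with pan-leukocyte scaling (0.15) and Hbegf without PTEC DN RAR replicate 3 (-0.05, and up to 0.52 without Cre– control replicate 1), none of them called, and Igf1 was called without PTEC DN RAR replicate 3 (-0.39). The cause was not tested. Leaving out each mouse in turn gave 3 to 5 members lower and 1 higher. Related genes numbered 24 to 31 lower and 29 to 36 higher. In these fits 11.7% to 17.7% of all genes tested were called lower and 15.2% to 23.2% higher. With pan-leukocyte scaling 20 related genes were lower, against 32, with the median of all genes moving from 0.04 to 0.24. Scaling on resident macrophage markers, added after seeing the data, gave 37 lower and 32 higher, against 32 and 37. With the replicate number as a block, 4 members were lower and 1 higher, with 31 and 38 related genes. Of all genes, 16.9% were called lower and 23.4% higher with that block. Deviations of same-numbered mice from their genotype means correlated at -0.02, 0.26 and -0.01, so the numbers were not read as pairs. Ereg, with 24 reads in all, was tested only with no filter and did not pass (adjusted p = 0.669), and Areg and Il10 rest on 48 to 186 and 107 to 470 reads per library. Counting error is only part of their spread.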
